A study of Rattus norvegicus with 11 samples.

Results

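The haemoglobin genes detected in the RNA of rat peripheral white blood cells (WBCs) are described here. They were taken as the genes whose deposited description starts with hemoglobin or beta-globin and whose FPKM averaged at least 1 over the 11 samples, which held for 8 of 11 such genes among the 32623 genes listed. FPKM is the number of fragments counted for a gene, scaled by transcript length and by the total of that sample. The members were thus chosen by their description and mean FPKM, so their presence is given as a description, with no test. The member nearest the limit was Hbe1, with a mean FPKM of 1.70, and the nearest gene below it was Hbe2, far lower at 0.0376. Hbe2 had 16 counts in all samples together. The zeta gene Hbz and the gamma gene Hbg1 were listed at 0 in every sample. A count of 0 allows a share of the counts of up to 4.59e-06% per sample (3 counts).

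WBCs were collected from male Wistar rats, which were 7 weeks old at the start. Collagen-induced arthritis (CIA) was set off in 4 rats with collagen in incomplete Freund's adjuvant, injected in the left hind paw and boosted on day 7, and each of these rats gave a Nampt++ sample on about day 8 and a Nampt+ sample on about day 14. The authors assigned these statuses from their own PCR of Nampt, and by sequencing the FPKM of Nampt overlapped between Nampt++ samples (10.1 to 46.5) and Nampt+ samples (11.4 to 36.9). A further 3 samples came from normal healthy controls without CIA. Blood was drawn from the orbital vein, red blood cells were lysed in all groups, and polyadenylated RNA was sequenced with paired-end reads. The labels' extraction protocol speaks of retinas, but the retina markers Rpe65, Crx and Nrl were at 0 in all samples, and 0 of 8 retina markers reached an average FPKM of 1. Markers of lymphocytes, NK cells, neutrophils, monocytes and platelets were detected in every sample.

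Haemoglobin, the oxygen carrier of red blood cells, is built from alpha-type and beta-type chains, each holding a haem group. Rat adults carry several near-identical alpha-type genes in a cluster that also holds zeta and theta genes, and several beta-type genes in a cluster that also holds epsilon and gamma genes. Mature mammalian red blood cells have no nucleus, while reticulocytes, the youngest circulating red cells, still carry globin mRNA, so white cell preparations often contain some of it.

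The members lie in these clusters. On chromosome 10, as the files list them, all on the minus strand, are Hba-a3 (ENSRNOG00000045989, 15577249 to 15577977), a first gene named Hba-a2 (ENSRNOG00000047321, 15589364 to 15590220), Hbq1a (ENSRNOG00000028114, 15600220 to 15600858) and a second gene named Hba-a2 (ENSRNOG00000029886, 15602794 to 15603649). The genes sharing the name Hba-a2 are called the Hba-a3-side copy and the Hbz-side copy after their neighbours. On chromosome 1 are LOC689064 (ENSRNOG00000047098, 168945449 to 168965566, plus strand), LOC103694857 (ENSRNOG00000061299, 168957460 to 168958836, plus strand), Hbb (ENSRNOG00000058105, 168971274 to 168972725, minus strand) and Hbe1 (ENSRNOG00000029286, 169003788 to 169005190, minus strand). LOC103694857, described as beta-2, lies inside the span of LOC689064, described as beta-globin, so their counts are uncertain. How reads shared by near-identical copies were split is likewise unknown, and values of single copies carry that limit. The genome build behind these positions is not given in the sources used here.

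The proximal promoters are shown as a description, and their link to the levels of the members was not tested. They are the 120 bases before the start of each gene, 5′ to 3′, from RefSeq on GRCr8, a build that need not be that of the files. Capitals mark matches, on either strand, to motifs known from promoters of red cell genes. These were TATAAA and the variant form CATAAA for the TATA box, CCAAT for the CCAAT box, CACCC for Klf-type factors, and for Gata factors AGATAA as well as TGATAA. No matches overlapped, and in Hbb the matches to CCAAT on either strand lay side by side. The name Hba-a2 matched the RefSeq entries Hba-a1 and Hba-a2, LOC689064 matched Hbb-bs, and Hbq1a matched Hbq1b by its gene number. The files list LOC689064 on the strand opposite to Hbb, whereas Hbb-bs and Hbb share the minus strand in GRCr8. The window of Hbb-bs therefore need not be the promoter of the gene counted as LOC689064. LOC103694857 matched no entry, and the window of Hbe1, the member with the lowest FPKM, is described but not printed.
Hba-a1 (chr10:15842581-15842700, minus strand): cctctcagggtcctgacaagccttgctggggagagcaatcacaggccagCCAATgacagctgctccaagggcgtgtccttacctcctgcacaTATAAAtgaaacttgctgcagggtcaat
Hba-a2 (chr10:15829139-15829258, minus strand): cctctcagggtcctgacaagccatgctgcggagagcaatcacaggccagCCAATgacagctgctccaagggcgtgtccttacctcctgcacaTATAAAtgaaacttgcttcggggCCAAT
Hba-a3 (chr10:15816944-15817063, minus strand): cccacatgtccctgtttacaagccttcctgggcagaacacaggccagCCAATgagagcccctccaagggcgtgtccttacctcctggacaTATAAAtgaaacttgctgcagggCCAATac
Hbq1b (chr10:15839840-15839959, minus strand): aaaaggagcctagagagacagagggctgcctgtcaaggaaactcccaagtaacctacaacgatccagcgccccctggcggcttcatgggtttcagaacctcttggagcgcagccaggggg
Hbb (chr1:167663722-167663841, minus strand): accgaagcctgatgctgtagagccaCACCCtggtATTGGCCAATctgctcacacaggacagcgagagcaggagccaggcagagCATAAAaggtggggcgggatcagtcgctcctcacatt
Hbb-bs (chr1:167631631-167631750, minus strand): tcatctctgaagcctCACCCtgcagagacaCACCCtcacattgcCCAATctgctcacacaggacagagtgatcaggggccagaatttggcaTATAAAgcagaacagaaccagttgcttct
TATAAA was found from 28 to 30 bases before the start in the 3 alpha-type entries, and 6.66% of all 33469 promoters hold it in the same window. CCAAT was found in the windows of all but Hbq1b, against 19.9% of all promoters, and CACCC only in Hbb and Hbb-bs, against 29.5%. Hbb-bs carried TATAAA 29 bases before its start. Hbb carried CATAAA instead, which 5.28% of all promoters hold, 37 bases before its start, as did Hbe1, 29 bases before its own. The letters AGATAA, in 4.57% of all promoters, were in none of these windows. The same held for TGATAA, which is in 3.55%. None of the 6 motifs was in the window of Hbq1b. Once aligned, the window of Hba-a3 shared 100 of 120 bases with Hba-a2 and 103 with Hba-a1, and the last 2 shared 115 with each other. Hbb and Hbb-bs shared 83 of 120 bases.

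Haemoglobin mRNA took a large and very unequal share of these libraries. In Nampt++ samples, the 8 members held 6.84%, 37.3%, 20.2% and 7.80% of the total counts in rats 1 to 4. In Nampt+ samples, the shares were 25.9%, 42.8%, 18.4% and 14.8% in the same rats. In normal healthy controls 1 to 3, they were 30.1%, 30.9% and 16.2%. The groups overlapped, and the highest and lowest samples both came from CIA rats. Total counts per sample ranged from 65340027 to 85819418, and the 95% Wilson interval of a share was at most 0.0115 percentage points to either side, which covers counting error only.

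**Figure D1:**
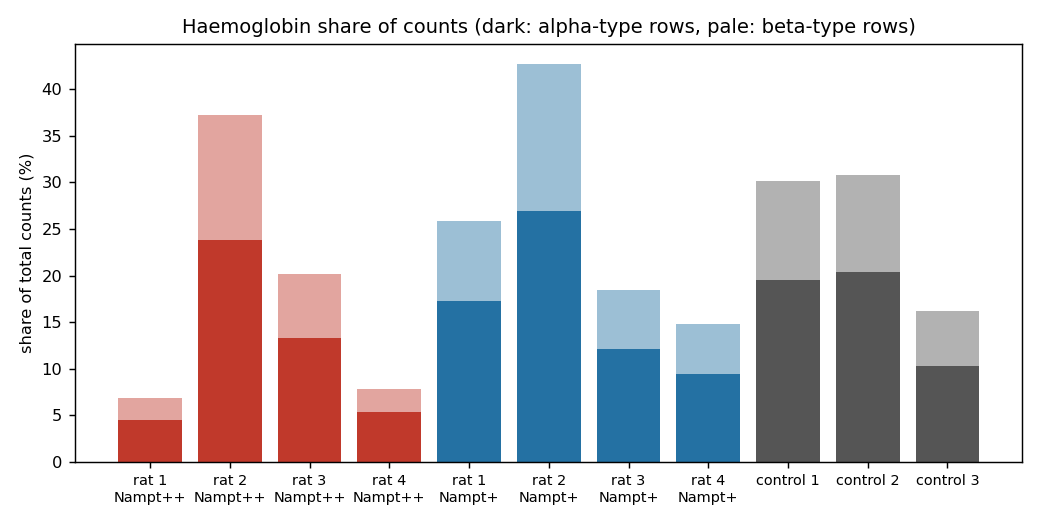
Share of total counts (%, vertical axis) held by haemoglobin genes in each of the 11 samples; dark parts are alpha-type and pale parts beta-type genes. Rat 2 has the highest bar at both statuses (37.3% and 42.8%), and the Nampt++ samples of rats 1 and 4 have the lowest (6.84% and 7.80%).

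The mean share in Nampt++ samples was 18.0% ± 14.2 (SD, n = 4). It was 25.5% ± 12.4 (SD, n = 4) at Nampt+ status, and controls averaged 25.7% ± 8.23 (SD, n = 3). The differences between these means were smaller than the SD of the CIA groups. From Nampt++ to Nampt+ status, the share went up by 19.0 percentage points in rat 1, by 5.49 in rat 2 and by 7.04 in rat 4, and fell by 1.75 in rat 3. In bulk RNA, fewer red cells and less RNA per red cell cannot be told apart. Of the summed FPKM, the members took 15.2% to 62.5%, a larger share than of the counts in every sample, as FPKM divides by transcript length.

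The counts left for all other genes ranged from 41005335 to 69813321. Since the total enters every FPKM, the same level of another gene within the non-haemoglobin RNA gave an FPKM up to 1.63-fold lower in the sample richest in haemoglobin than in the poorest. With each FPKM divided by the share outside the haemoglobin genes, limma on log2(FPKM + 1) found 60.5% of the genes past the thresholds higher in Nampt+ than in Nampt++ samples, against 40.7% with FPKM as deposited. Of 91 genes past the thresholds as deposited and 86 after this division, 62 were shared (68.1% and 72.1% of them). For Nampt++ samples against controls, the higher genes were 54.5% as deposited and 29.7% after the division, with 89 of 145 and of 118 genes shared (61.4% and 75.4%). Nampt+ samples against controls gave 44.3% and 44.9%. In edgeR the library size was also taken without the haemoglobin genes. Both edgeR fits took the ratio and direction from FPKM as deposited, so they cannot show how the division changes these shares. Between Nampt+ and Nampt++ samples, 48.6% of 72 genes were higher with all counts and 45.9% of 74 without haemoglobin. The shares were 48.1% and 48.1% for Nampt++ samples against controls, and 42.9% and 41.4% for Nampt+ samples against controls.

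The alpha-type genes encode the chains that pair with beta chains. The Hbz-side copy of Hba-a2 took the most counts of any gene in every sample. Its FPKM was 51543, 281879, 161335 and 64020 in Nampt++ samples of rats 1 to 4, 199231, 323818, 142093 and 107674 in Nampt+ samples, and 233588, 249285 and 116350 in controls 1 to 3. These values followed the total haemoglobin share, with rat 2 highest at each status, and the groups overlapped. The Hba-a3-side copy lay lower in each sample, from 25785 to 139967 in FPKM, and made up 29.0% to 33.6% of the alpha-type FPKM. With the other copy it held 62.2% to 67.8% of all haemoglobin counts.

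The beta-type genes varied the same way. Hbb, the adult beta chain, had an FPKM of 15286, 95334, 48091 and 14330 in Nampt++ samples of rats 1 to 4, 55958, 111919, 43922 and 35793 in Nampt+ samples, and 75176, 68367 and 39810 in controls. The samples ranked much as for the alpha-type genes, and the groups overlapped. LOC103694857 ranged from 13150 to 82292 and LOC689064 from 2890 to 21141 in FPKM. Hbb held 43.2% to 52.4% of the beta-type FPKM, LOC103694857 held 38.2% to 46.7% and LOC689064 held 8.54% to 10.5%. The lowest share of Hbb and the highest of LOC103694857 belonged to the Nampt++ sample of rat 4.

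The balance between the chains was steadier than the total. The ratio of summed alpha-type to beta-type FPKM was 2.51, 2.26, 2.48 and 2.75 in Nampt++ samples of rats 1 to 4, 2.59, 2.19, 2.43 and 2.19 in Nampt+ samples, and 2.35, 2.51 and 2.20 in controls. Between the extremes the ratio differed 1.26-fold, where the haemoglobin share differed 6.25-fold. The group means were 2.50 ± 0.20 (SD, n = 4), 2.35 ± 0.19 (SD, n = 4) and 2.35 ± 0.15 (SD, n = 3), and the groups overlapped. In rat 4 the ratio fell by 0.56 from Nampt++ to Nampt+ status, and in the other rats it moved by 0.080 in rat 1, -0.071 in rat 2 and -0.052 in rat 3.

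Hbq1a is the theta chain gene, whose product has no settled role in oxygen transport. It was expressed far below the adult genes other than Hba-a3 and moved with those genes. Its FPKM was 35.7, 184, 60.4 and 18.0 in Nampt++ samples of rats 1 to 4, 154, 186, 46.4 and 53.7 in Nampt+ samples, and 130, 122 and 70.5 in controls. Rat 2 was again highest at each status, and the groups overlapped. Hbe1, an embryonic epsilon chain gene, had 39 to 131 counts in a sample and an FPKM of 1.05, 2.75, 2.04 and 1.96 in Nampt++ samples, 1.48, 1.78, 0.991 and 0.913 in Nampt+ samples, and 1.69, 2.05 and 1.97 in controls. Nampt+ samples held the lowest Hbe1 values, but the groups overlapped.

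**Figure D2:**
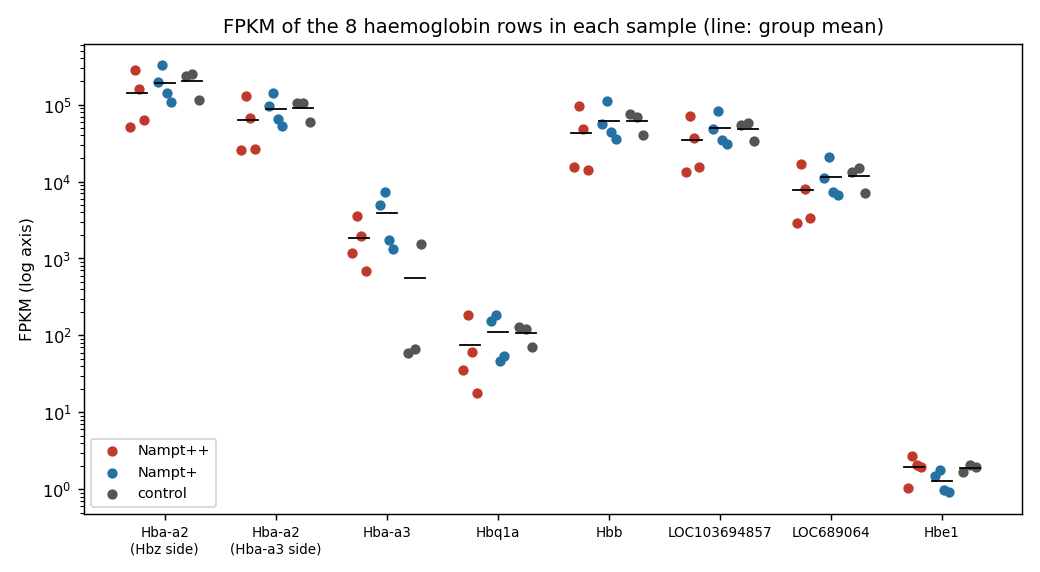
FPKM (log axis) of the 8 haemoglobin genes in each sample, with Nampt++ samples in red, Nampt+ samples in blue, controls in grey and a line at each group mean. The Hba-a2 copies and the beta-type genes lie between 2890 and 323818 in all groups, while Hba-a3 in controls splits into 58.9 and 66.2 against 1550.

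Hba-a3, a further alpha-type gene, departed from the others. Its FPKM was 1164, 3610, 1979 and 691 in Nampt++ samples of rats 1 to 4, 5024, 7357, 1737 and 1332 in Nampt+ samples, and 58.9, 66.2 and 1550 in controls 1 to 3. Controls 1 and 2 lay below all other samples, and control 3 lay among the CIA samples, so that the groups overlapped. In these same controls 1 and 2 the summed alpha-type FPKM was 337471 and 353356, which only the rat 2 samples exceeded. The value in control 3 was 26.3-fold that in control 1 and 23.4-fold that in control 2.

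As a share of alpha-type FPKM, Hba-a3 fell into separate levels. In Nampt++ samples of rats 1 to 4, the share was 1.48%, 0.867%, 0.857% and 0.758%. In Nampt+ samples it was 1.67%, 1.56%, 0.834% and 0.826%, and in controls 0.0175%, 0.0187% and 0.873%. Controls 1 and 2 stood near 0.02%, 6 samples stood from 0.758% to 0.873%, and 3 samples, from rats 1 and 2, stood from 1.48% to 1.67%. Rat 1 was at the upper level at both statuses, rats 3 and 4 were at the middle level at both, and rat 2 was at the middle level as Nampt++ and at the upper level as Nampt+. The assignment of reads among the alpha-type copies was not tested.

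**Figure D3:**
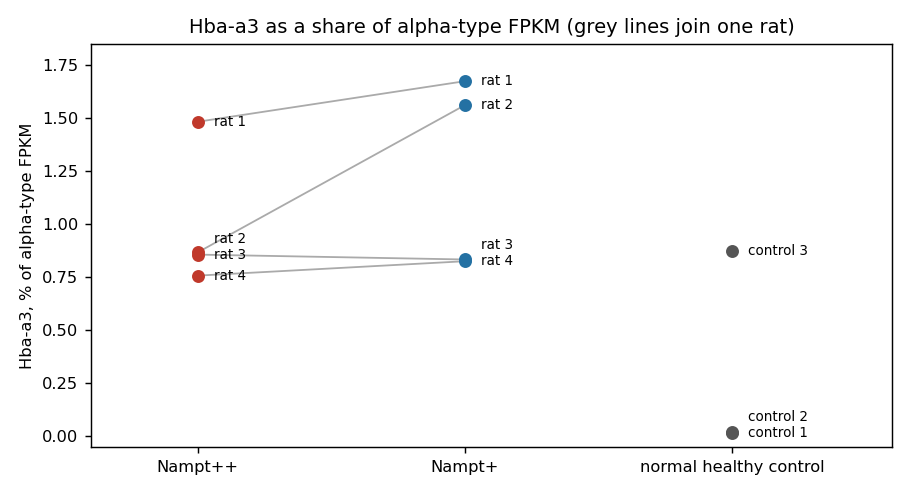
Hba-a3 as a share of the summed alpha-type FPKM (%, vertical axis) by group, with each point a sample and grey lines joining the samples of a rat. Controls 1 and 2 are at 0.0175% and 0.0187%, and all other samples are between 0.758% and 1.67%.

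Over the 11 samples, the counts of the members per 1000000 non-haemoglobin counts were compared on a log2 scale. These samples are not all independent, as each CIA rat gave a Nampt++ and a Nampt+ sample. Pearson's r lay between 0.99 and 1.00 for the 10 pairs of adult genes other than Hba-a3, and between 0.94 and 1.00 for the 15 pairs when Hbq1a was added. It lay between 0.66 and 0.72 for Hbe1 with these genes and between 0.075 and 0.19 for Hba-a3 with each of the other members. Spearman's rho for the 7 pairs with Hba-a3 was between 0.25 and 0.50.

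The question of the first comparison was how CIA rats differed between Nampt++ and Nampt+ status. The deposited counts of 11219 genes were tested with edgeR (quasi-likelihood test). Of these genes 72 passed the study's thresholds, which ask for an unadjusted p under 0.05 and a ratio of mean FPKM over 2 or under 0.5, and these are 0.642%. Of the 8 haemoglobin genes, 0 passed, and 0 had an unadjusted p under 0.05. Hba-a3 came closest, with a mean FPKM of 3863 ± 2857 (SD, n = 4) in Nampt+ and 1861 ± 1282 (SD, n = 4) in Nampt++ samples, a log2 fold change of 1.36 (SE 0.85, 95% interval -0.57 to 3.29) and an unadjusted p of 0.145. The Hba-a2 copies, Hbq1a and the beta-type genes had log2 fold changes from 0.70 to 0.83, and the interval for Hbb ran from -1.17 to 2.70. Hbe1 had a log2 fold change of -0.38 (95% interval -1.60 to 0.85).

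All 8 genes had an adjusted p of 1.00 (edgeR, Benjamini-Hochberg), and 0 of the genes tested (0.0%) had one under 0.05, whereas 256 had an unadjusted p under 0.05 and DESeq2 gave 5 genes an adjusted p under 0.05. By exact two-sided permutation of log2(FPKM + 1), the smallest p among the members was 0.143, for Hbe1, where the test can reach 0.0286. The 7 members other than Hbe1 were higher in the Nampt+ sample in 3 of 4 rats, with sign-flip p values within rats from 0.25 to 0.375, and 0.125 is the smallest this test allows. With rat as a block, limma on log2(FPKM + 1) placed Hba-a3 past the thresholds (difference 0.97, unadjusted p = 0.0184), while edgeR with the same block did not (log2 fold change 1.09, unadjusted p = 0.0711). Without the Nampt+ sample of rat 2, the log2 fold changes of the adult genes other than Hba-a3, and of Hbq1a, were between -0.20 and -0.060.

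The second comparison set Nampt++ samples against normal healthy controls. Of 11219 genes, 77 passed the thresholds (0.686%), and 0 of 8 haemoglobin genes were among them. The Hba-a2 copies, Hbq1a and the beta-type genes had log2 fold changes from -0.61 to -0.49, and the interval for the Hbz-side copy of Hba-a2 ran from -2.33 to 1.24. Hba-a3 had a mean FPKM of 1861 ± 1282 (SD, n = 4) against 558 ± 859 (SD, n = 3), with a log2 fold change of 2.11 (SE 1.17, 95% interval -0.59 to 4.81, unadjusted p = 0.109). Hbe1 differed by 0.0079 (95% interval -1.06 to 1.07). By exact permutation, Hba-a3 gave the smallest p of the members, 0.114, where 0.0286 can be reached.

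Calls in this comparison turned on single samples and on the test. Hba-a3 passed the thresholds without control 3 (log2 fold change 4.76, unadjusted p = 0.00147) and in limma on log2(FPKM + 1) with all samples (3.07, unadjusted p = 0.00385). Hbq1a passed, at -1.63, without the Nampt++ sample of rat 2.

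The last comparison set Nampt+ samples against the same 3 controls. Of 11269 genes, 56 passed the thresholds (0.497%), and 1 of 8 haemoglobin genes, Hba-a3, was among them. Its mean FPKM was 3863 ± 2857 (SD, n = 4) against 558 ± 859 (SD, n = 3), a ratio of 6.92, with a log2 fold change of 3.46 (SE 1.38, 95% interval 0.27 to 6.65, unadjusted p = 0.0370). Its adjusted p was 1.00 by edgeR with Benjamini-Hochberg adjustment, and its exact permutation p was 0.0571. All Nampt+ samples exceeded controls 1 and 2, and that of rat 4 lay below control 3. The call was lost without the Nampt+ sample of rat 1 (3.45) or rat 2 (2.42), and without control 1 (2.94) or control 2 (2.97). Without control 3 the log2 fold change was 6.11.

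The other adult genes and Hbq1a lay close to the controls. Their log2 fold changes ran from 0.15 to 0.27, with an interval for Hbb from -1.47 to 2.01, and they were between -0.17 and -0.059 in limma on log2(FPKM + 1). Hbe1 had -0.38 (95% interval -1.67 to 0.92). With alpha-type and beta-type copies summed, which leaves Hba-a3 a small part of its sum, 0 of the 4 resulting genes passed in any of the 3 comparisons. Because both comparisons with controls share their controls, their values are not independent of each other.

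**Figure D4:**
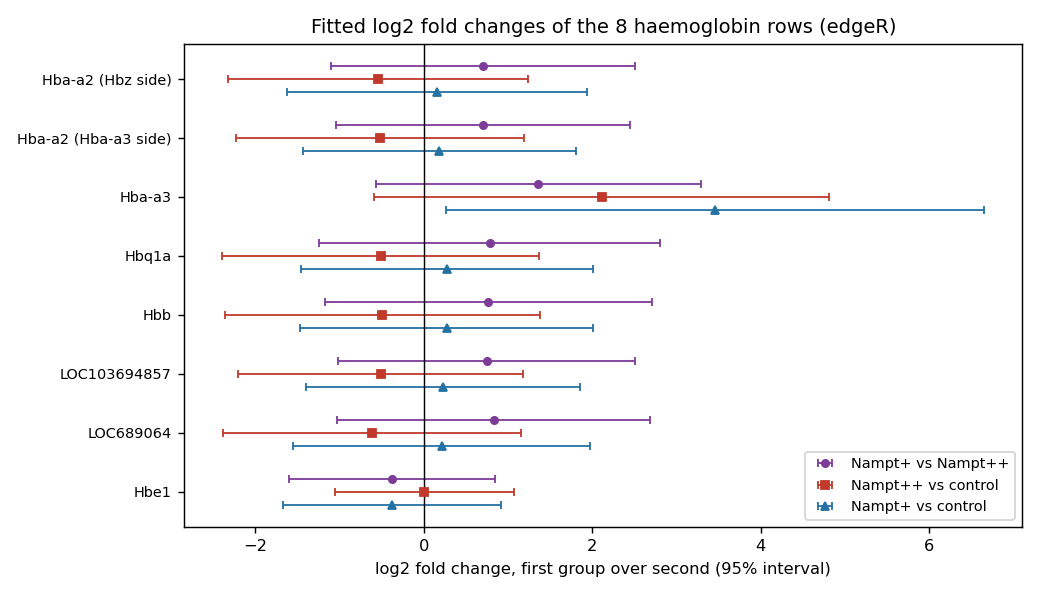
Log2 fold changes from edgeR (points) with 95% intervals (bars) for the 8 haemoglobin genes in the 3 comparisons, first group over second. All intervals cross 0 except that of Hba-a3 between Nampt+ samples and controls (0.27 to 6.65).

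Genes outside haemoglobin whose levels followed it most closely were sought among the 11234 others that averaged at least 1 in FPKM. Likeness was Pearson's r over the 11 samples between each gene and the summed members, both as log2 of counts per 1000000 non-haemoglobin counts, a scale on which haemoglobin reads do not dilute other genes. The highest r was 0.995, for Alas2, the erythroid enzyme of the first step of haem synthesis. Slc25a39, a mitochondrial carrier needed for glutathione import, followed with 0.991, then Cd52, a small surface glycoprotein best known from lymphocytes, with 0.986, and Ybx3, an RNA-binding protein, with 0.984. Slc38a5, a glutamine transporter, had 0.981, and Tfdp2, a partner of E2F factors, 0.978. Dapk2, a protein kinase, had 0.976, Tmem86b 0.971, Isca1, an iron-sulfur cluster protein, 0.970 and RGD1310507 0.969. In all, 67 of the 11234 genes had an r over 0.9 and 0 had one under -0.9, while the median was -0.11.

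Alas2 tracked the members sample by sample. Its FPKM was 228, 1277, 647 and 223 in Nampt++ samples of rats 1 to 4, 925, 1421, 520 and 427 in Nampt+ samples, and 1011, 1095 and 458 in controls. The order of the samples was close to that for haemoglobin, with rat 2 highest at each status. Its log2 fold changes were 0.71 between Nampt+ and Nampt++ samples (unadjusted p = 0.399), -0.55 between Nampt++ samples and controls (unadjusted p = 0.496) and 0.16 between Nampt+ samples and controls (unadjusted p = 0.840), by edgeR and with an adjusted p of 1.00 each.

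**Figure D5:**
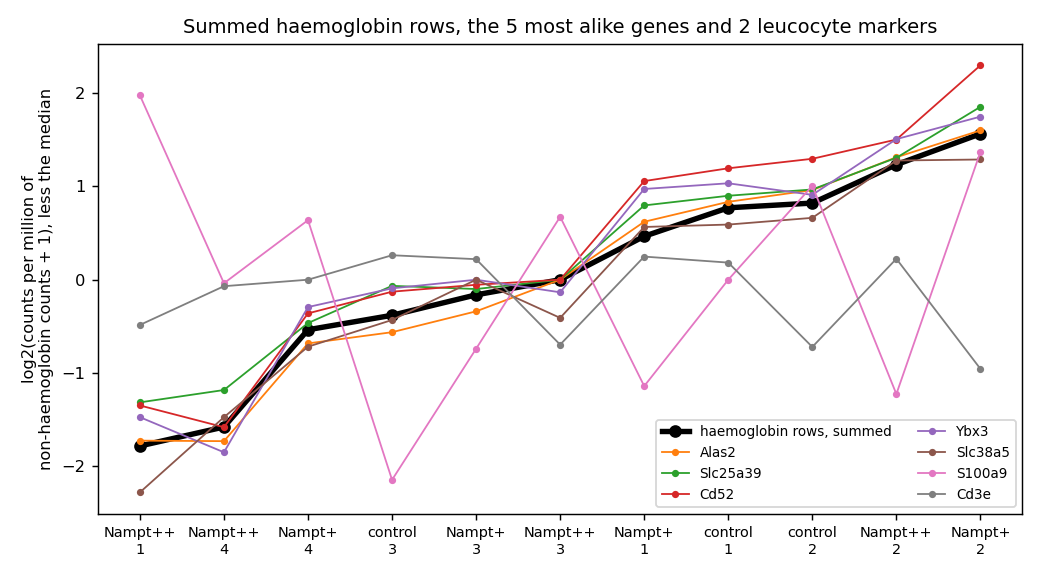
Log2 of counts per 1000000 non-haemoglobin counts plus 1, less each gene's median, for the summed haemoglobin genes (black), the 5 genes most like them and the markers S100a9 (neutrophils) and Cd3e (T cells), with samples ordered by haemoglobin. The 5 genes rise with haemoglobin from left to right (r from 0.981 to 0.995), whereas S100a9 (r = -0.15) and Cd3e (r = -0.13) go up and down along the same order.

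Genes of red cell formation were followed as 6 lists of 66 symbols, of which 65 were found and 58 averaged at least 1 in FPKM. Of these 58, 15 had an r over 0.9, 38 an r over 0.5 and 10 an r at or under 0. Of all 11234 genes outside the members, 67 exceeded 0.9, 407 exceeded 0.5 and 7623 were at or under 0. The red cell membrane and skeleton list had 7 of 13 over 0.9. Of its 3 most abundant genes, Slc4a1, the anion exchanger of the red cell membrane, was over it (0.917), and Slc2a1, the glucose transporter (-0.158), and Epb41, a skeleton protein (0.065), were not. Among red cell enzymes, 3 of 8 were over 0.9, with Bpgm, which makes 2,3-bisphosphoglycerate, at 0.957, Prdx2, a peroxidase, at 0.955 and Gpx1, glutathione peroxidase, at 0.506. Haem synthesis had 2 of 8, with Fech, which inserts iron into the porphyrin, at 0.940 beside Alas2, and with Alas1, the housekeeping form, at -0.056.

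Of the reticulocyte maturation list, 2 of 9 were over 0.9, including Bnip3l, which drives clearance of mitochondria, at 0.951, while Isg20, an exonuclease, had 0.803 and Fbxo7, a ubiquitin ligase subunit, 0.753. Of the chaperone and iron supply list, 0 of 9 were over 0.9. Ahsp, which stabilises free alpha chains, had 0.875, and the mitochondrial carriers Slc25a38 and Slc25a37 had 0.692 and -0.244. Of the erythroid transcription factors, 1 of 11 was over 0.9, which was Klf1 (0.958, named after its value was seen), the activator of adult beta-globin. The most abundant of that list, Ldb1 (0.029), Nfe2 (0.118) and Lyl1 (0.615), were lower.

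Ahsp FPKM was 58.3, 277, 62.0 and 42.4 in Nampt++ samples of rats 1 to 4, 233, 481, 46.5 and 91.4 in Nampt+ samples, and 147, 135 and 90.7 in controls. Rat 2 again held the highest value at each status, and the groups overlapped. Of 58 genes of the 6 lists, 0 were past the thresholds between Nampt+ and Nampt++ samples. The numbers were 0 of 57 for Nampt++ samples against controls and 0 of 58 for Nampt+ samples against controls. Over all genes tested, 0.642%, 0.686% and 0.497% passed, so 0 in lists of this size is not a result about them. In the first of these comparisons the median log2 fold change was 0.81 over the membrane and skeleton list, 0.60 over red cell enzymes, 0.56 over reticulocyte maturation and 0.54 over haem synthesis, beside -0.00021 over all genes. It was 0.16 over transcription factors and 0.083 over chaperone and iron supply. Against controls, the list medians lay between -0.32 and 0.061 for Nampt++ samples and between 0.080 and 0.33 for Nampt+ samples. Genes of a list are not independent of each other. The list medians carry no test and were not taken again without single samples.

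Genes that clear haemoglobin and haem formed a further list. It had 9 entries that averaged at least 1 in FPKM, with Slc40a1 counted under both of its entries. Only Slc48a1, a haem transporter (named after its value was seen), had an r over 0.9 (0.912). The median r over these entries was 0.13, between those of the transcription factors (0.24) and of the chaperone and iron supply list (-0.14). The iron store subunits Fth1 and Ftl1 had 0.127 and 0.820, and the biliverdin reductase Blvra had 0.045. Hmox1, which breaks down haem, was the only 1 of the 9 entries past the thresholds for Nampt+ against Nampt++ samples, where 0.642% of all genes passed. It had a log2 fold change of -1.50 (SE 0.66, unadjusted p = 0.0482) and an adjusted p of 1.00 by edgeR. Its FPKM was 7.77, 6.08, 35.1 and 66.1 in Nampt++ samples of rats 1 to 4, 10.2, 7.03, 11.2 and 7.44 in Nampt+ samples, and 8.97, 45.3 and 4.66 in controls. The Nampt++ samples of rats 3 and 4 and control 2 held the high values. In rats 1 and 2 the Nampt+ sample had the higher value. The groups overlapped, and the r with haemoglobin was -0.073. Cd163, the receptor for haptoglobin-bound haemoglobin, was at 0 in all samples, and Hp, which encodes haptoglobin, ranged from 7.89 to 110 in FPKM (both named after their values were seen). The other globins Mb, Ngb and Cygb had a summed FPKM of at most 0.291.

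The listed white cell and platelet markers were not among the genes closest to haemoglobin. Cd52, with an r of 0.986, is on none of these lists. None of the 8 neutrophil, 5 monocyte, 6 T cell, 4 B cell, 5 NK cell and 6 platelet markers detected had an r over 0.9, and the median r of these lists lay between -0.16 and 0.25. The summed FPKM of the neutrophil list ranged from 3007 to 40454 in Nampt++ samples, from 3816 to 15652 in Nampt+ samples and from 2165 to 14274 in controls. That of the platelet list ranged from 4796 to 9667, from 1727 to 15728 and from 3510 to 6751. Of these markers, only Ppbp, a platelet chemokine, passed the thresholds, in 1 comparison, where 0.686% of all genes passed. Its log2 fold change between Nampt++ samples and controls was -1.09 (edgeR, unadjusted p = 0.0283, adjusted p = 0.9999). In the same comparison 3 of the 6 platelet markers had a positive log2 fold change, and the median of the list was 0.018. The part of cell composition in the haemoglobin values was not tested.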

How the data were processed

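RNA of peripheral WBCs from 4 CIA rats at Nampt++ and Nampt+ status and from 3 normal healthy controls was compared. The authors deposited raw counts of reads per gene, without normalization, and FPKM values, in which an FPKM of 0.0001 stands for 0 and was read as 0. The submitters' processing notes list cutadapt 1.9, HISAT2 2.0.4 and StringTie 1.3.4. The genome build and the treatment of reads that fit several copies are not given in the sources used here. Total counts ranged from 65340027 to 85819418 per sample, so the number of rats limits the precision more than counting does.

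Each pair of groups was fitted on its own in edgeR 4.0.16 (quasi-likelihood, TMM, R 4.3.3) over genes averaging at least 1 in FPKM, with Benjamini-Hochberg adjustment over all genes tested. A gene passed the thresholds at an unadjusted p under 0.05 and a ratio of mean FPKM over 2 or under 0.5. DESeq2 1.42.0 and limma 3.58.1 were alternatives, with pseudocounts of 1 and 0.1, and the fits were tested on simulated counts. Exact permutation tests went through every split of the samples, and the Wilson intervals used scipy 1.17.1. Alternatives chosen after seeing the data were limma with FPKM divided by the share outside haemoglobin, and limma with rat as a block. Same-numbered Nampt++ and Nampt+ samples come from the same rat, and over genes their deviations from their group means correlated at -0.27, -0.24, 0.24 and 0.08 for rats 1 to 4. Controls share only numbers with them. The labels do not say that each control sample is a separate rat, and p values then measure only the spread between these samples.

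The members and gene lists were chosen with earlier results of these data known. Named genes were the members, the 2 or 3 highest in mean FPKM of each list or those past the thresholds, and the 10 genes most like the summed members. Other genes, the retina markers, Cd163 and Hp among them, were named after their values were seen. Ccr2, Trac and Cd79a were among the listed symbols not matched. Promoters were from RefSeq (GRCr8).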

Additional observations from a re-analysis of the deposited data

Results flagged for a closer look

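Each group of 4 samples was searched for a sample far from the rest, in 36 tests over the members and their sums. Chance alone flags about 1 in 20 groups, and 2 were flagged. Hba-a3 held 0.760% of the haemoglobin counts in the Nampt++ sample of rat 1, against 0.399% to 0.438% in the other Nampt++ samples. LOC103694857 held 13.7% of the haemoglobin counts in the Nampt+ sample of rat 4, against 12.2% to 12.4% in the other Nampt+ samples. Control 3, with 13.5%, was close to the latter. The group of 3 controls, in which Hba-a3 held 0.00873%, 0.00954% and 0.428%, is too small for this search.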

How the results depend on the processing

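The log2 fold changes of the haemoglobin genes had the same direction and side of the thresholds as reported in 373 of 429 refits. Hba-a3 kept its direction in the refits, except that the alpha-type sum, of which it is a small part, gave -0.53 between Nampt++ samples and controls. In limma on log2(FPKM + 1) and log2(FPKM + 0.1), the differences between Nampt+ samples and controls turned to -0.17 and -0.17 for Hbq1a, -0.094 and -0.094 for the Hbz-side copy of Hba-a2, -0.11 and -0.11 for LOC689064, -0.075 and -0.075 for the Hba-a3-side copy, -0.073 and -0.073 for Hbb and -0.059 and -0.059 for LOC103694857. With FPKM divided by the share outside haemoglobin they were -0.16, -0.089, -0.10, -0.070, -0.068 and -0.054. Hbe1 between Nampt++ samples and controls turned to -0.018 with upper quartile scaling, -0.0066 and -0.034 in limma with pseudocounts of 1 and 0.1, and -0.086 after the division. The causes were not tested.

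Leaving out each sample in turn, the log2 fold changes between Nampt+ and Nampt++ samples ranged from -0.060 to 1.91 for Hbq1a, -0.15 to 1.43 for the Hbz-side and -0.071 to 1.48 for the Hba-a3-side copy of Hba-a2, -0.15 to 1.68 for LOC689064, -0.20 to 1.64 for Hbb and -0.10 to 1.53 for LOC103694857, with the lowest values without the Nampt+ and the highest without the Nampt++ sample of rat 2. For Nampt++ samples against controls, Hbe1 ranged from -0.31 to 0.28. For Nampt+ samples against controls, the ranges were -0.58 to 0.58 for Hbq1a, -0.70 to 0.56 for the Hbz-side and -0.60 to 0.52 for the Hba-a3-side copy, -0.77 to 0.63 for LOC689064, -0.70 to 0.56 for Hbb and -0.62 to 0.58 for LOC103694857, with the lowest without the Nampt+ sample of rat 2 and the highest without control 2. Hba-a3 ranged from 0.32 to 2.03 in the first comparison, from 1.45 to 4.76 in the second and from 2.42 to 6.11 in the third.

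The number of haemoglobin genes past the thresholds was 0 to 0, 0 to 1 and 0 to 1 in the 3 comparisons when each sample was left out. It was 1 between Nampt+ and Nampt++ samples in limma with rat as a replicate block, and 1 between Nampt++ samples and controls in limma with either pseudocount or after the division. In edgeR, the replicate block left it at 0 and gave 56 genes past the thresholds against 72, and in limma with the block 123 genes passed. Of all genes, 58 to 165, 53 to 462 and 49 to 136 passed when each sample was left out. The highest counts came without the Nampt+ sample of rat 2 in the first comparison and without control 2 in the others, and other counts beyond 1.5 times the reported were 163 without the Nampt++ sample of rat 2 in the first comparison, 184 without that sample and 142 without control 3 in the second, and 98 when the Nampt+ sample of rat 1 and 112 when control 3 was left out in the third. Testing any gene with a count gave 295, 306 and 261, and a mean FPKM of at least 10 gave 19, 25 and 14, from more and from fewer genes tested. In the second comparison DESeq2 gave 121, limma 145 and 140 with pseudocounts of 1 and 0.1, and 118 after the division.

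Mean shares of total counts ranged from 11.6% to 21.7%, from 19.7% to 29.0% and from 23.2% to 30.5% in Nampt++, Nampt+ and control samples when each sample was left out, and the alpha-type to beta-type ratio from 2.42 to 2.58, 2.27 to 2.40 and 2.28 to 2.43. By summed FPKM, the share was 31.5% in Nampt++ samples, 43.0% in Nampt+ samples and 44.0% in controls, and by counts the ratio was 1.96, 1.84 and 1.84, since these measures weigh transcript length differently. Counting error was far below the spread between rats.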

Other observations

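Among genes outside haemoglobin, the one closest to the share of Hba-a3 in alpha-type FPKM was RGD1562420 (ENSRNOG00000005826), listed on chromosome 6 from 146394456 to 146395025 and described as similar to a hypothetical protein (r = 0.977 over the 11 samples, on log2 scales). It was named after its values were seen. Its FPKM was 40.0, 23.0, 18.7 and 27.3 in Nampt++ samples of rats 1 to 4, 53.9, 31.9, 24.5 and 21.3 in Nampt+ samples, and 2.76, 1.89 and 33.8 in controls 1 to 3. As for Hba-a3, controls 1 and 2 lay below all other samples, and control 3 lay among the CIA samples. With 11234 genes searched for the closest match, a high r carries no test.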
